A study of Mus musculus with 6 samples.

Results

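The genes described here are 32 mouse genes of mitochondrial fatty acid oxidation, listed by symbol and read by that symbol from the gene table of each library. Of these, 31 reached a TPM (a transcript share scaled for length and to a fixed total) of 0.5 or more in 3 or more libraries out of 6 and were tested, among 15426 genes tested out of 56884 in the tables. *Acss1*, an acetyl-CoA synthetase of the mitochondrial matrix, fell below this filter, with a TPM between 0 and 0.0498. The rule that chose them names the genes and uses no measured change. A few of its members work beside the pathway more than in it. *Mcat* serves fatty acid synthesis in the mitochondrion, *Cpt1c* encodes a CPT1 form of the endoplasmic reticulum known mainly from neurons, and *Echdc1* and *Acot1* encode cytosolic enzymes.

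RNA was taken at day 2 of beige adipocyte differentiation from a mouse cell line derived from the stromal vascular fraction (SVF) of subcutaneous white adipose tissue (scWAT), the fraction that holds adipocyte precursors. In PPARγ2, the master regulator of adipocyte differentiation, a lysine was replaced by glutamine (K382Q), which imitates the acetylated residue, or by arginine (K382R), which imitates the deacetylated one. Each group had 3 libraries that the labels call biological replicates. Both groups carried an HA-tagged mouse PPARγ2 mutant in a retroviral pMXs-Puro vector, were selected with puromycin as stable lines, and received the same induction medium with isobutylmethylxanthine, indomethacin, dexamethasone, insulin, T3 and the PPARγ agonist rosiglitazone. The endogenous *Pparg* gene remained in both. Cells with wild-type PPARγ2 or an empty vector were not analysed here, so each difference is one between the mutants and has no baseline. Whether a line came from 1 clone, and whether replicates came from separate transductions, is not given in the sources used here, so the p-values measure the spread between these cultures.

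Fatty acids enter the mitochondrion as acylcarnitines. CPT1 on the outer membrane forms them, a translocase carries them across the inner membrane, and CPT2 turns them back into acyl-CoA. Each round of β-oxidation then removes an acetyl-CoA through a dehydrogenase, a hydratase, a second dehydrogenase and a thiolase, and the electron transfer flavoprotein (ETF) passes the electrons of the first step to the respiratory chain. In brown and beige adipocytes this pathway supplies the fuel for heat production by UCP1, and PPARs with their coactivator PGC-1α are known regulators of its genes.

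Aligned length per library, the quotient of coverage and FPKM, was 5.95 to 7.5 Gb in K382Q and 6.53 to 8.15 Gb in K382R, and the first principal component (61.3% of the variance) separated the mutants. Of the 7 adipocyte markers tested, 4 were higher in K382Q, 2 were lower and 1 was not called, and the summed TPM of the list of 8 was 53109 to 56975 in K382Q and 43555 to 44842 in K382R. *Fabp4* alone made up 46394 to 50292 and 37390 to 38541 of these, and the other 7 summed to 6683 to 6742 and 6164 to 6301. *Adipoq* was lower in K382Q (log2 fold change -1.28), and *Lep* was at 0 in all 6 libraries. Of the beige and brown adipocyte markers, *Elovl3* was higher (11.1% of all genes tested were). *Cidea* and *Ucp1* passed the filter through the K382Q libraries, with a TPM of 4.33 to 4.75 and 0.816 to 0.98 there and 0.108 to 0.751 and 0.0439 to 0.162 in K382R, and *Dio2* had a TPM of at most 0.0131. All 4 adipocyte precursor markers tested were lower, as were 36.9% of all genes tested, and their list of 6 summed to a TPM of 462.6 to 508.8 in K382Q and 773.5 to 811.3 in K382R. The classical brown fat markers *Zic1* and *Meox1* were at 0 in every library, while the white and beige marker *Hoxc9* was lower in K382Q with 17.9 ± 1.04 against 25.7 ± 0.288 (log2 fold change -0.51, adjusted p = 0.000195, limma). The summed TPM of leukocyte, endothelial and skeletal muscle markers was at most 5.76. The skeletal muscle list summed to 2.21 to 2.97 in K382Q and 4.59 to 5.76 in K382R, with *Acta1* lower in K382Q (log2 fold change -0.94) and *Myod1* and *Myog* at 0. Adipocyte markers, in both directions, *Elovl3*, the 4 precursor markers tested, *Hoxc9* and *Acta1* thus moved with the mutant. Their part in the values below was not tested, and in bulk RNA fewer cells of a type and less RNA per cell cannot be told apart.

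The pathway was strongly expressed in both mutants. Mean TPM over the 6 libraries was above 100 for 18 of the 31 genes (58.1%, against 11.8% of all genes tested). The most abundant transcripts were *Etfb*, *Acadl* and *Acadvl*, with mean TPM of 563.1, 516.7 and 501.7. At the other end stood *Acad12*, *Cpt1c*, *Echdc3* and *Acad10*, with mean TPM of 5.12, 7.44, 8.82 and 9.30. The 32 genes together held a summed TPM of 6250 ± 40.3 (SD, n = 3) in K382Q and 5513 ± 12 in K382R, which is 0.625% and 0.551% of all transcripts.

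**Figure D1:**
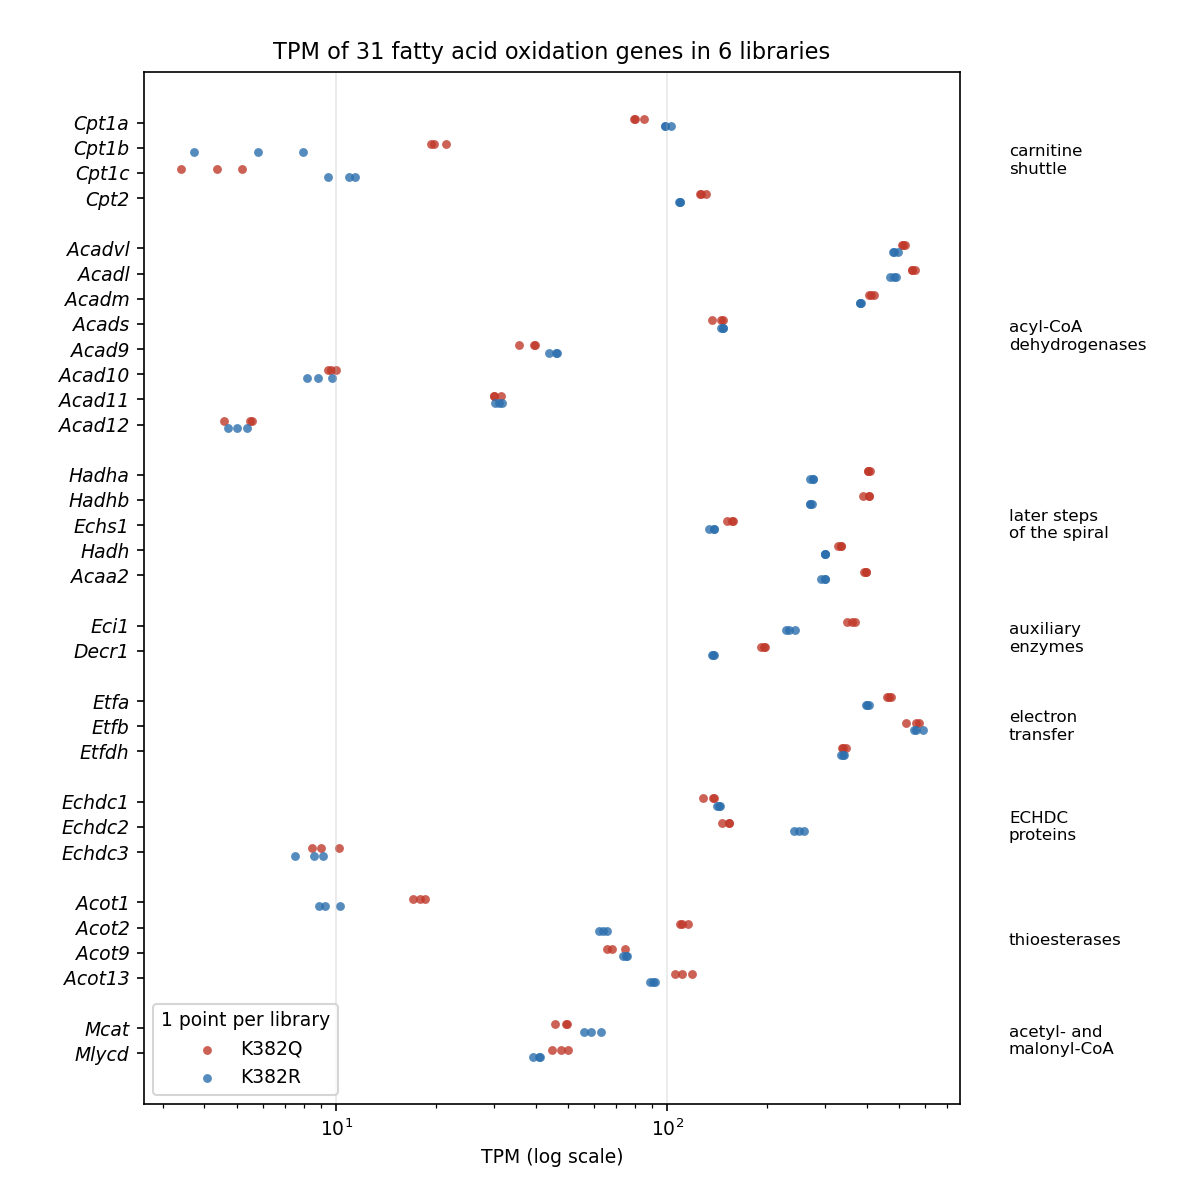
TPM of each of the 31 genes tested (log axis) in the 3 K382Q libraries (red) and the 3 K382R libraries (blue), grouped by role. Points of a group lie close together for most genes; the groups stand furthest apart for *Cpt1b* (19.3 to 21.4 against 3.72 to 7.92) and, the other way, for *Cpt1c* (3.40 to 5.21 against 9.43 to 11.4).

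Between the mutants, 17 of the 31 genes were higher in K382Q at an adjusted p-value under 0.05 (limma on log2(TPM + 0.5) with Benjamini-Hochberg adjustment over all genes tested), 5 were lower and 9 were not called. Among all genes tested, 48.1% were called, 11.1% higher and 36.9% lower. The 5 lower genes were *Cpt1a*, *Cpt1c*, *Acad9*, *Echdc2* and *Mcat*. Libraries of the mutants were fully separated in TPM for 17 genes in the higher direction and 6 in the lower direction, where 14.1% and 42.8% (57% together) of all genes were. The median log2 fold change of the 31 genes was 0.13, against -0.14 over all genes tested. Of the 31, 26 had a log2 fold change above that median of all genes, as by definition did 7713 of all 15426. The changes were mostly small. A fold change over 2 with an adjusted p-value under 0.05 was reached by 1 gene in each direction, *Cpt1b* and *Cpt1c*, against 1.27% (higher) and 2.61% (lower) of all genes, or 3.88% in either direction. *Acot1* also passed 2-fold with median-ratio scaling and with quantile normalization, at log2 fold changes of 1.03 and 1.04.

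Most genes were lower in K382Q on the TPM scale, and the counts changed with the scaling. Median-ratio scaling moved the median of all genes from -0.14 to 0.00 and raised the log2 fold change of each of the 31 genes by 0.14 to 0.15, and quantile normalization raised them by 0.01 to 0.17. The median of the 31 genes was then 0.27 and 0.24. The share of higher genes among all calls went from 23.2% to 49.4% with that scaling, to 47.7% with quantile normalization and to 36.4% with FPKM. With median-ratio scaling 20 of the 31 genes were higher and 3 lower, beside 19.9% and 20.4% of all genes, and quantile normalization gave the same 20 and 3, beside 19.1% and 21.0%. *Acad9* and *Mcat* lost their calls under both.

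**Figure D2:**
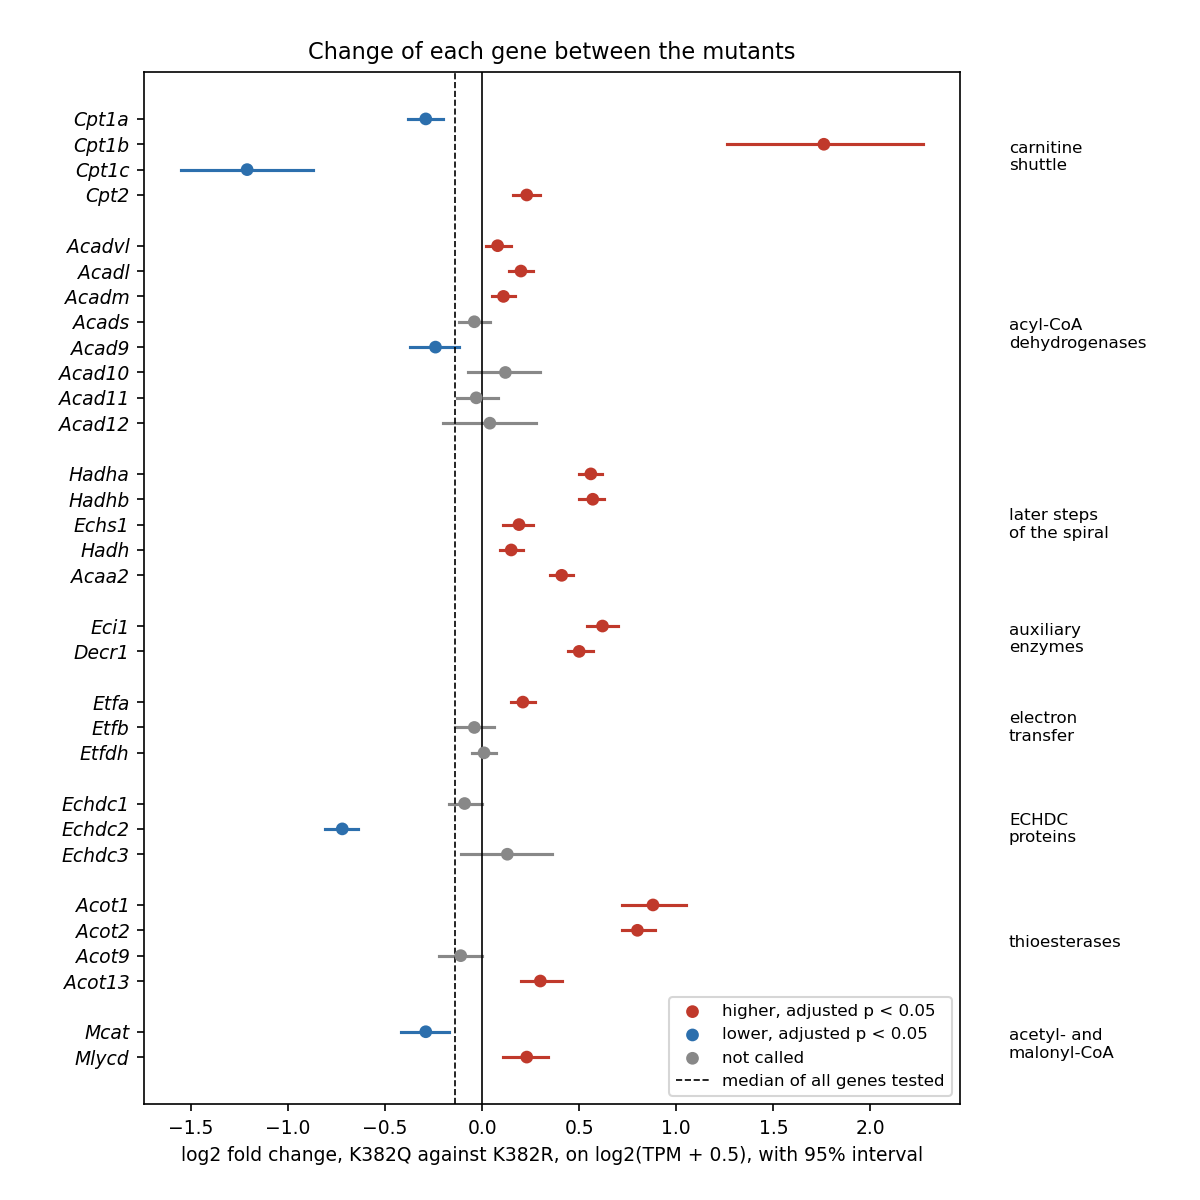
Log2 fold change of each gene, K382Q against K382R, on log2(TPM + 0.5), with 95% confidence intervals from limma (n = 3 per group). Red marks genes higher, blue genes lower and grey genes not called, and the dashed line is the median of all genes tested, -0.14.

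At the carnitine shuttle the forms of CPT1 changed in opposite directions. *Cpt1a* (chr19:3372334-3435733, GRCm39, plus strand), the form of liver and many other tissues, had a TPM of 85.2, 80.1 and 79.4 in K382Q and 98.3, 98.6 and 102.4 in K382R. Every K382R library lay above every K382Q library, and the log2 fold change was -0.29 (SE 0.039, adjusted p = 0.000573, limma). It was -0.14 with median-ratio scaling and -0.15 with quantile normalization, and the call held under both. *Cpt1b* (chr15:89300608-89310066, minus strand), the form typical of muscle and brown fat, had a TPM of 21.4, 19.3 and 19.7 in K382Q and 7.92, 5.82 and 3.72 in K382R. The groups did not overlap, and the K382R libraries spread over a wider relative range than the K382Q libraries. The mean was 3.46-fold higher in K382Q (log2 fold change 1.76, SE 0.22, adjusted p = 0.000387, limma). For *Cpt1c* (chr7:44608796-44624275, minus strand) the TPM was 3.40, 5.21 and 4.35 in K382Q and 9.43, 11.4 and 10.9 in K382R. These groups did not overlap either, and the mean was 2.45-fold higher in K382R (log2 fold change -1.21, SE 0.15, adjusted p = 0.000328, limma).

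The value of *Cpt1b* rests on how reads were shared out with a neighbour. In GENCODE mouse release 39, 68.5% of its exonic bases also belong to *Gm44502*, a gene on the same strand, and 44.2% of the 100-base windows of its transcripts occur there too. *Gm44502* had a TPM of 5.59, 7.49 and 5.85 in K382Q and 1.34, 3.74 and 8.62 in K382R, so its K382R values were highest where those of *Cpt1b* were lowest. Summed, the pair had a TPM of 27, 26.8 and 25.5 in K382Q and 9.26, 9.56 and 12.3 in K382R. The sum was 2.55-fold higher in K382Q, with a log2 fold change of 1.32 (SE 0.10, adjusted p = 3.88e-05, limma).

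*Cpt1a* remained the main form in both mutants. It made up 76.5% to 77.4% of the summed CPT1 TPM in K382Q and 85.0% to 87.5% in K382R. The share of *Cpt1b* was 18.5% to 19.5% in K382Q and 3.18% to 6.84% in K382R, and that of *Cpt1c* was 3.09% to 4.97% and 8.15% to 9.83%. With *Gm44502* added to *Cpt1b* and to the total, the pair held 23.4% to 23.9% in K382Q and 7.91% to 9.82% in K382R. The summed TPM of the CPT1 forms was 103.4 to 110.1 in K382Q and 115.7 to 117.0 in K382R, so the sum was lower in K382Q on the TPM scale. With median-ratio scaling it was 109.3 to 114.4 and 109.6 to 110.4, and the groups overlapped. *Cpt2* (chr4:107761178-107780807, minus strand), whose product completes the shuttle, had a TPM of 130.6, 126.8 and 125.9 in K382Q and 109.5, 109.2 and 108.5 in K382R. It was higher in K382Q without overlap (log2 fold change 0.23, SE 0.029, adjusted p = 0.000452, limma). The ratio of *Cpt1a* to *Cpt2* was accordingly 0.631 to 0.653 in K382Q and 0.898 to 0.945 in K382R.

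**Figure D3:**
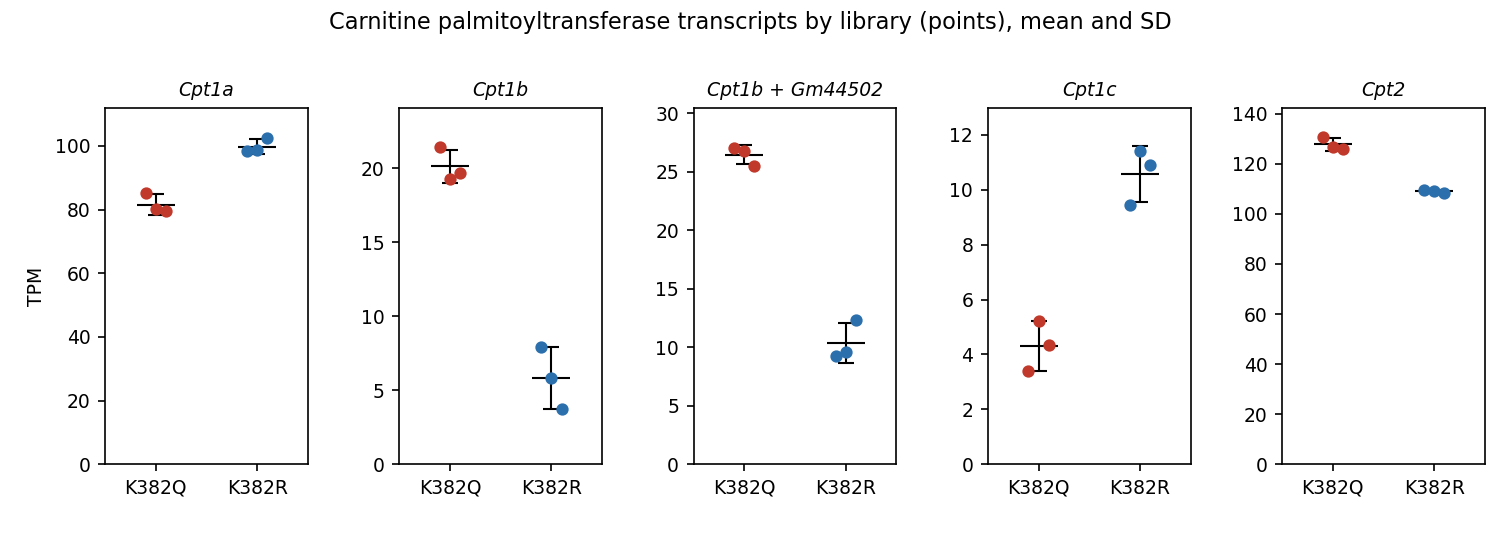
TPM of the CPT genes by library (points), with the mean and SD of each group (n = 3), each panel on its own linear axis from 0. *Cpt1b* was higher in K382Q alone and when summed with the overlapping *Gm44502* (25.5 to 27 against 9.26 to 12.3), *Cpt2* was also higher, and *Cpt1a* and *Cpt1c* were lower.

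Of the 8 acyl-CoA dehydrogenases, which carry out the first step of each round for different chain lengths, 3 were higher in K382Q (37.5%, against 11.1% of all genes tested), 1 was lower (12.5%, against 36.9%) and 4 were not called. The very long-chain enzyme *Acadvl* had a mean TPM of 516.4 ± 6.42 (SD, n = 3) in K382Q and 487.1 ± 9.79 in K382R, and its log2 fold change of 0.08 was close to the threshold (adjusted p = 0.0367, limma). That call was lost when any 1 of 4 libraries (K382Q replicates 2 and 3, K382R replicates 1 and 3) was left out, with adjusted p-values up to 0.126. *Dvl2*, on the opposite strand, covers 38.2% of the exonic bases of *Acadvl* and was not called (TPM 17.8 to 21.6). The long-chain enzyme *Acadl* had 552.3 ± 5.04 and 481.1 ± 10.6, and the medium-chain enzyme *Acadm* had 412.9 ± 7.54 and 383.0 ± 2.08. Both were higher in K382Q without overlap, with log2 fold changes of 0.20 and 0.11. The short-chain enzyme *Acads* was not called, with 142.7 ± 5.88 and 146.5 ± 1.2 and a 95% interval of the log2 fold change from -0.12 to 0.04.

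*Acad9*, which is also an assembly factor of respiratory complex I, was lower in K382Q, with a mean TPM of 38.3 ± 2.26 against 45.5 ± 1.47 and a log2 fold change of -0.24 (adjusted p = 0.00636, limma). With median-ratio scaling this was -0.09 and with quantile normalization -0.08, and the call was lost under both. *Acad10*, *Acad11* and *Acad12*, less studied members of the family, were not called. Their log2 fold changes were 0.12, -0.03 and 0.04, and their library values overlapped between the mutants. The sign of the small values for *Acads* and *Acad11* turned positive with FPKM and under both scalings, and *Acad11* then passed the threshold with median-ratio scaling and with quantile normalization. *Acad10* also passed with these.

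All 5 genes of the later steps of the spiral were higher in K382Q, where 11.1% of all genes tested were, and their summed TPM was 1674 to 1706 in K382Q and 1274 to 1282 in K382R, a ratio of the means of 1.32. The trifunctional protein, a membrane complex that carries the last steps for long chains, led this group. *Hadha* (chr5:30323302-30360160, minus strand), its α subunit, had a TPM of 402.4, 408.2 and 402.3 in K382Q and 275.7, 275.0 and 270.3 in K382R. *Hadhb* (chr5:30360246-30389591, plus strand), its β subunit with the thiolase, had 390.4, 407.6 and 406.6 in K382Q and 269.3, 269.8 and 274.0 in K382R. The groups of both genes stood far apart against a spread of a few percent. The log2 fold changes were 0.56 (SE 0.025, adjusted p = 3.12e-06, limma) for *Hadha* and 0.57 (SE 0.029, adjusted p = 4.64e-06, limma) for *Hadhb*.

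The subunits kept their proportion. The ratio of *Hadha* to *Hadhb* TPM was 0.989 to 1.03 in K382Q and 0.986 to 1.02 in K382R. In the deposited coordinates the genes lie head to head on opposite strands, with 85 bases between their starts, at chr5:30360161-30360245 of GRCm39. This interval is shown on the plus strand because the pair that moved together shares it, and 69.4% of its bases are G or C, with no part set in capitals.

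Hadha-Hadhb interval: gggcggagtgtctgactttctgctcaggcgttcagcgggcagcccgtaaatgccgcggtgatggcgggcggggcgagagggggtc

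In GENCODE release 39 some longer transcript models of the pair overlap, over 932 exonic bases. *Hadhb* also shares 5.01% of its 100-base windows with its pseudogene *Hadhb-ps*, whose TPM was 134.4 to 150.9 in K382Q and 92.4 to 102.3 in K382R. The sum of *Hadhb* and *Hadhb-ps* had a log2 fold change of 0.55 (SE 0.024), close to that of *Hadhb* alone. The soluble matrix enzymes changed less. *Acaa2*, the medium-chain thiolase, had a mean TPM of 395.7 ± 2.87 in K382Q and 297.3 ± 4.50 in K382R (log2 fold change 0.41). *Echs1*, the short-chain hydratase, had 155.4 ± 3.20 and 136.5 ± 2.82 (log2 fold change 0.19). *Hadh*, the short-chain hydroxyacyl-CoA dehydrogenase, had 332.2 ± 4.09 and 299.0 ± 0.574 (log2 fold change 0.15). For none of these did the libraries of the mutants overlap, and each call held under the 14 alternatives. With median-ratio scaling the values of *Echs1* and *Hadh* were 0.34 and 0.30.

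Both auxiliary enzymes for unsaturated fatty acids were higher in K382Q, where 11.1% of all genes tested were. *Eci1* (chr17:24645615-24658322, plus strand), the isomerase that moves a double bond into place, had a TPM of 348.7, 362.4 and 368.7 in K382Q and 228.1, 242.2 and 233.7 in K382R. Its log2 fold change was 0.62 (SE 0.035, adjusted p = 7.51e-06, limma), with no overlap of the groups. *Decr1* (chr4:15917240-15945507, minus strand), the reductase that removes a surplus double bond, had 197.3, 191.3 and 196.1 in K382Q and 138.6, 137.2 and 136.5 in K382R. It too was higher in every K382Q library, with a log2 fold change of 0.50 (SE 0.028, adjusted p = 6.7e-06, limma). Their summed TPM was 1.49 times as high in K382Q, the largest ratio of the 8 roles.

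In the electron transfer system *Etfa* was higher in K382Q, while its partner *Etfb* and the acceptor dehydrogenase *Etfdh* were not called. *Etfa* had a mean TPM of 465.8 ± 6.54 in K382Q and 401.5 ± 3.68 in K382R (log2 fold change 0.21, adjusted p = 0.000328, limma). *Etfb* had 555.3 ± 27 and 570.9 ± 18.1, with a 95% interval of the log2 fold change from -0.14 to 0.06. *Etfdh* had 341.1 ± 5.17 and 338.5 ± 2.98, with an interval from -0.05 to 0.07. The products of *Etfa* and *Etfb* form a heterodimer, yet the ratio of their TPM was 0.815 to 0.887 in K382Q and 0.686 to 0.717 in K382R. *Etfb* shares 14.8% of its windows with *Etfbl*, whose TPM was between 0 and 13.4, and the sum of both gave a log2 fold change of -0.05 (adjusted p = 0.339, limma). With median-ratio scaling *Etfb* turned to 0.11 without passing the threshold. *Etfdh* passed it with FPKM at 0.10, with median-ratio scaling at 0.16 and with quantile normalization at 0.08.

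Of the 3 enoyl-CoA hydratase domain proteins, 1 was lower in K382Q (33.3%, against 36.9% of all genes tested) and 2 were not called. *Echdc2* (chr4:108022634-108036505, plus strand), a little-studied mitochondrial member of the hydratase family, had a TPM of 153.4, 153.7 and 146.6 in K382Q and 240.6, 250.5 and 258.9 in K382R. All 3 K382R libraries lay far above those of K382Q. The mean was 1.65-fold higher in K382R (log2 fold change -0.72, SE 0.037, adjusted p = 4.86e-06, limma), and the log2 fold change stayed between -0.75 and -0.57 under the 14 alternatives. *Zyg11a*, on the opposite strand, shares 12.2% of its windows and had a TPM of at most 0.347. *Echdc1*, whose product clears ethylmalonyl-CoA in the cytosol, had 134.5 ± 5.33 in K382Q and 142.8 ± 1.42 in K382R. Its libraries did not overlap, but it was not called (adjusted p = 0.0813, limma), and 40.9% of its windows are shared with other genes, mainly *Rnf146* on the opposite strand. *Echdc3* was low and not called, with 9.23 ± 0.925 and 8.40 ± 0.82.

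Of the 4 acyl-CoA thioesterases, which release free fatty acids from acyl-CoA, 3 were higher in K382Q (75%, against 11.1% of all genes tested). *Acot1* (chr12:84056264-84065145, plus strand) had a TPM of 17.1, 18.5 and 17.9 in K382Q and 9.24, 8.88 and 10.3 in K382R. Its mitochondrial relative *Acot2* (chr12:84034635-84040647, plus strand), which lies close by, had 109.3, 115.3 and 110.9 in K382Q and 62.0, 65.8 and 63.8 in K382R. Neither gene had overlapping groups. The log2 fold change was 0.88 (SE 0.071, adjusted p = 4.45e-05, limma) for *Acot1* and 0.80 (SE 0.037, adjusted p = 3.48e-06, limma) for *Acot2*. These genes are near-identical in part, so their separate values are uncertain: 11.4% of the windows of *Acot1* occur in *Acot2*, and 17.5% of those of *Acot2* in *Acot1*. Their sum had a log2 fold change of 0.82 (SE 0.036).

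*Acot13*, a small mitochondrial thioesterase, was higher in K382Q with 111.7 ± 6.75 against 90.2 ± 1.47 (log2 fold change 0.30, adjusted p = 0.00108, limma). Other genes on the opposite strand, *BC005537* and *Tdp2*, share 55.2% of its windows. *BC005537* was lower in K382Q (log2 fold change -0.30), the direction opposite to that of *Acot13*. Whether strand was used in counting is not given in the sources used here. *Acot9* was not called, with 69.3 ± 4.55 and 74.8 ± 1.14, although it was lower in K382Q when K382Q replicate 1 was left out (log2 fold change -0.16, adjusted p = 0.0107, limma).

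*Mlycd*, malonyl-CoA decarboxylase, which removes the inhibitor of CPT1, was higher in K382Q with 47.5 ± 2.71 against 40.5 ± 0.975 (log2 fold change 0.23, adjusted p = 0.00664, limma). *Mcat*, the malonyltransferase of mitochondrial fatty acid synthesis, was lower with 48.3 ± 2.16 against 59.4 ± 3.61 (log2 fold change -0.29, adjusted p = 0.00311, limma). The value of *Mcat* was -0.14 with median-ratio scaling and -0.13 with quantile normalization, and its call was lost under both. The libraries of the mutants did not overlap for either gene.

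The stretches of 250 bases before the gene starts in the RefSeq promoter table (GRCm38.p6) were searched on both strands for letters known from PPAR and other nuclear receptor elements. Entries matched 26 of the 32 genes. The letters AGGTCA, the half-site that nuclear receptors read, were found for 6 of the 26 (23.1%), against 14.0% of all 32851 promoters of the table. The 6 were *Acadm*, *Acadvl* and *Echs1*, which were higher in K382Q, *Cpt1a* and *Cpt1c*, which were lower, and *Echdc3*, which was not called. They are shown on the strand of each gene, 5′ to 3′, with the half-site in capitals because genes that moved in either direction hold these letters. TGACCT is the half-site read from the other strand.

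Acadm, chr3:153944867-153944893, minus strand: gTGACCTtcgggctccggtgacactgg

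Acadvl, chr11:70015490-70015535, minus strand: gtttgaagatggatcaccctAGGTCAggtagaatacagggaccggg

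Echs1, chr7:140116479-140116524, minus strand: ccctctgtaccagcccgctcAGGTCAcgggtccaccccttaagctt

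Cpt1a, chr19:3323187-3323232, plus strand: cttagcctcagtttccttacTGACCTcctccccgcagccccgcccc

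Cpt1c, chr7:44974972-44975017, minus strand: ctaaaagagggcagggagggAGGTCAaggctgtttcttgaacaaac

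Echdc3, chr2:6213155-6213200, minus strand: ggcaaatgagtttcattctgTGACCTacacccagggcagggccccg

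The first base of the half-site lies 249 bases before the start in *Acadm*, 87 in *Acadvl*, 83 in *Echs1*, 94 in *Cpt1a*, 146 in *Cpt1c* and 186 in *Echdc3*. The full direct repeat, AGGTCA followed after 1 base by AGGTCA on the same strand, was found for 0 of the 26 and for 0.0335% of all promoters, and the extended half-site TCAAGGTCA, which contains AGGTCA, for 0 of the 26 and for 0.387%. The letters GCGCA and GCGC with 1 base between them, known from NRF1, were found for 4 of the 26 (15.4%), against 3.74% of all promoters. These were *Acad10*, *Acad12*, *Etfb* and *Etfdh*, none of which was called on the TPM scale. A match is a description of these letters in this window and not a binding site.

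Genes beside the listed ones were counted from a list of 29 further genes of fatty acid activation, carnitine transport, ketone bodies and peroxisomal oxidation. Of the 27 tested, 18 were higher in K382Q (66.7%, against 11.1% of all genes tested) and 5 were lower (18.5%, against 36.9%), with a median log2 fold change of 0.32. Large increases were those of *Slc27a1*, a fatty acid transporter, *Ehhadh*, the peroxisomal bifunctional enzyme, and *Acaa1b*, a peroxisomal thiolase. Their log2 fold changes were 2.09, 1.74 and 1.27. *Slc27a1* had a TPM of 93.3, 94.4 and 89.8 in K382Q and 22.6, 20.8 and 20.7 in K382R, with no overlap. The largest decreases were those of the acyl-CoA synthetases *Acsl1*, *Acsl5* and *Acsl4* and of *Oxct1*, which uses ketone bodies, with log2 fold changes of -0.47, -0.37, -0.27 and -0.25. *Acsl4* lost its call with median-ratio scaling and with quantile normalization, at -0.11 under each. Under these, *Acsl5* was at -0.22 and -0.20 and *Oxct1* at -0.10 and -0.13, and both genes kept their calls. The synthetases did not move one way, since *Acsl3*, chosen after its values were seen, was higher (log2 fold change 0.60, adjusted p = 5.3e-05, limma). *Slc25a20*, the carnitine-acylcarnitine translocase that links CPT1 and CPT2, was higher with 233.2 ± 5.90 against 209.1 ± 2.91 (log2 fold change 0.16, adjusted p = 0.00361, limma). *Acacb*, which makes the malonyl-CoA that inhibits CPT1, was chosen after its values were seen. It was 2.44-fold higher in K382Q, with a TPM of 36.1 to 38.1 against 14.9 to 15.8. *Acaca*, the other listed gene of malonyl-CoA synthesis, was lower with 45.7 ± 0.918 against 49.3 ± 1.38 (log2 fold change -0.11, adjusted p = 0.0487, limma), and this call was lost under 11 of the 14 alternatives, with a positive value of 0.04 under median-ratio scaling and 0.06 under quantile normalization.

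Of 14 listed regulators of the pathway, 12 were tested, 3 were higher in K382Q (25%, against 11.1% of all genes tested) and 5 were lower (41.7%, against 36.9%). *Ppargc1a*, which encodes PGC-1α, had a TPM of 5.00, 4.57 and 4.28 in K382Q and 1.93, 1.88 and 1.53 in K382R (log2 fold change 1.17, adjusted p = 0.000163, limma). *Ppara*, the PPAR that controls fatty acid oxidation in liver and brown fat, was 1.71-fold higher at a low level, with 3.86 to 4.19 against 1.98 to 2.83. *Sirt3*, the main mitochondrial deacetylase, was also higher (log2 fold change 0.56). The lower genes with the largest changes were *Pparg*, *Sirt1*, *Ppard* and *Sirt7*, with log2 fold changes of -0.43, -0.35, -0.24 and -0.17. *Sirt7* (adjusted p = 0.0433, limma) lost its call under 9 of the 14 alternatives, among them both scalings and leaving out any library but K382Q replicate 1. *Ppard* lost its call under both scalings, and *Sirt1* under quantile normalization. *Pparg* had a TPM of 1333, 1164 and 1104 in K382Q and 1590, 1632 and 1612 in K382R. Reads of the vector's PPARγ2 and of the endogenous gene cannot be told apart in this value, so the sum of both was lower in K382Q in each library. The counts of regulators moved with the scaling, to 5 higher and 2 lower with median-ratio scaling and 5 higher and 1 lower with quantile normalization.

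**Figure D4:**
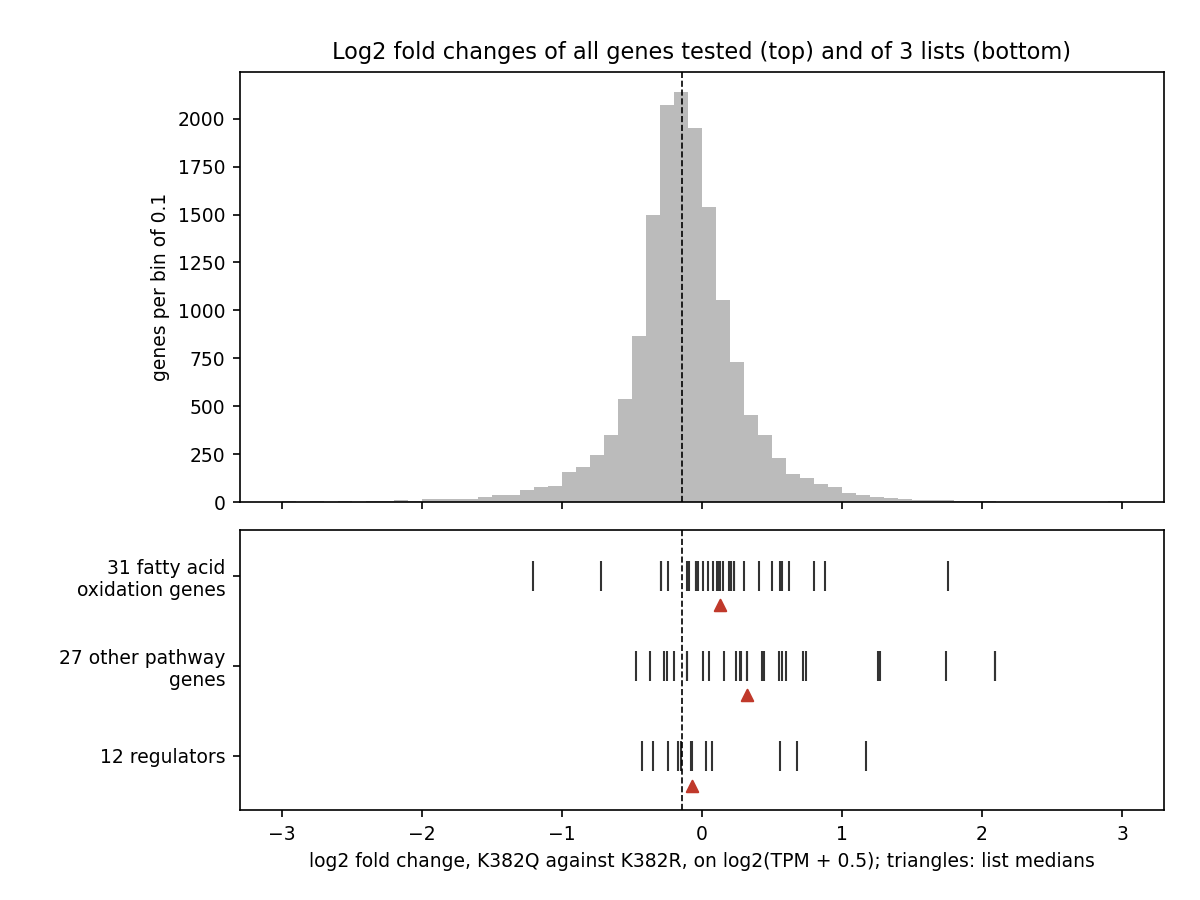
Distribution of the log2 fold change, K382Q against K382R, over the 15426 genes tested (top, values beyond 3 in either direction set to 3) and the values of the 31 fatty acid oxidation genes, 27 other pathway genes and 12 regulators tested (bottom, 1 tick per gene, with a triangle under each list median). The medians lie at 0.13, 0.32 and -0.08, and the dashed line is the median of all genes, -0.14.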

How the data were processed

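The members, lists and tests were chosen with earlier results of these data known. Per the labels and the study's methods, the authors aligned reads of NEBNext Ultra libraries to GRCm39 with HISAT2 and quantified genes with StringTie. The deposited TPM has a fixed total per library and so shows shares of the transcripts. The deposited FPKM is per length and aligned total, and the deposited coverage is the mean depth per base. Repeated gene entries (at most 5 per library) were summed. Genes that reached a TPM of 0.5 in 3 or more libraries were compared on log2(TPM + 0.5) by limma-trend (limma 3.58.1, R 4.3.3), with Benjamini-Hochberg adjustment at 0.05. The pseudocount understates changes of low genes. A DEG also needed a fold change over 2. With 3 libraries per group an exact two-sided permutation test of 1 gene cannot go below p = 0.1. Values for all 6 libraries are given for members called with an absolute log2 fold change of at least 0.5, and for the CPT genes. Of the other lists, up to 4 called genes per direction with the largest change are named, with *Slc25a20*, *Pparg* and *Ppargc1a*. Of the genes this rule names, 1 is not reported here. On simulated libraries of 15426 genes, limma recovered 98% of 100 changes of 0.5 and 100% of 100 changes of 1 on the log2 scale, with 5 false calls. The changed genes were drawn from those with a TPM above about 5, the noise was normal with a smoothed SD, and no other gene was changed. Recovery for lower genes, and under changes as widespread as in these data, was not tested. At most 0.0117% of values were identical in any pair of libraries. Shared windows used GENCODE release 39, in which 3 of the 32 members had the deposited start and end. Python 3.11.15, pandas 2.3.3, numpy 2.4.6 and matplotlib 3.10.9 were used. Alternatives were pseudocounts of 1 and 0.1, no filter, a TPM of at least 1, FPKM, median-ratio scaling, quantile normalization, the replicate block and leaving out each library. Sums with genes of shared sequence were added after seeing the data.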

Additional observations from a re-analysis of the deposited data

How the results depend on the processing

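Under the 14 alternatives, 19 of the 22 called members kept their call and direction, and none of the 22 changed sign. *Acadvl* (6 alternatives), *Acad9* and *Mcat* (2 each) lost the call, and the cause was not tested. The lower count of members fell to 3 with median-ratio scaling and with quantile normalization, as did that of the other pathway genes. The regulators became 5 higher with FPKM and with either scaling, and their lower count was 3 with no filter or FPKM, 2 with median-ratio scaling and 1 with quantile normalization. The member median was 0.19 with FPKM, 0.27 with median-ratio scaling and 0.24 with quantile normalization, where the median of all genes was -0.05, 0.00 and -0.00. The members exceeded it by 0.24, 0.27 and 0.25, against 0.26 on the TPM scale. Members past 2-fold numbered 3 with either scaling, where *Acot1* joined. Leaving out each library in turn gave a member median of 0.11 to 0.18 and 3 to 4 lower regulators. Values of members that had not been called changed sign in these cases: with FPKM *Acads* to 0.04, *Acad11* to 0.06 and *Etfb* to 0.04; with median-ratio scaling *Acads* to 0.11, *Acad11* to 0.12, *Etfb* to 0.11, *Echdc1* to 0.07 and *Acot9* to 0.04; with quantile normalization *Acads* to 0.07, *Acad11* to 0.13, *Echdc1* to 0.03 and *Acot9* to 0.05; *Etfdh* to -0.00 without K382Q replicate 1 and *Acad12* to -0.00 without K382Q replicate 2. The replicate numbers did not pair the libraries (correlations of same-numbered deviations -0.02, 0.05 and 0.02). With the replicate block 6987 genes were called instead of 7415, 16 members were higher and 5 lower, and *Acadvl* stayed at 0.08 with an adjusted p of 0.06 (limma). Depth enters only through aligned length, so no counting interval was given. The largest SE of a member was that of *Cpt1b*, 0.22.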
